A study of Mus musculus with 8 samples.

Results

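Collagen and matrix remodelling genes were described in m6A peak lists of mouse liver. The genes were chosen by symbol alone, as the collagen chains (symbols starting with Col, a number, a and a number), the laminin chains, the matrix metalloproteinases (Mmp), their tissue inhibitors (Timp), the ADAMTS proteases and *Lox*, *Loxl1*, *Loxl2*, *Fn1*, *Dcn*, *Lum*, *Bgn*, *Fbn1*, *Eln* and *Sparc*. Of 11558 genes with an m6A peak in either genotype, 60 matched this rule, and they held 43 of 15635 peaks in *Wtap* flox/flox livers and 117 of 19185 peaks in *Wtap*-HKO livers. RefSeq lists 111 mouse genes that match, and 52 of them had no peak in either list. The match to *Col4a3bp* is by spelling only, since this gene encodes a ceramide transfer protein and no collagen. It is counted among the 60 genes and named apart.

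The livers came from mice labelled C57BL/6, on normal chow, at 8 weeks of age. By the study's methods they were males on a C57BL/6J background. Both genotypes carried *Wtap* alleles with exon 4 flanked by loxP sites. *Wtap*-HKO mice also carried Cre recombinase under the albumin promoter, which acts in hepatocytes, so that stellate, endothelial and Kupffer cells kept *Wtap*, whereas *Wtap* flox/flox mice had no Cre. Each genotype had 2 m6A immunoprecipitation (IP) and 2 input libraries, each pooled from 5 mice.

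WTAP is the adaptor that holds the METTL3-METTL14 methyltransferase at nuclear speckles, and m6A affects splicing, export, translation and decay of mRNA. In liver, most of the interstitial collagen is made by stellate cells and portal fibroblasts, whereas basement membrane collagens and laminins also come from endothelial cells and cholangiocytes, and several metalloproteinases from macrophages. In fibrosis, fibrillar collagens, collagen VI and elastin accumulate, lysyl oxidases cross-link them, metalloproteinases cut them and TIMPs hold the metalloproteinases back.

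The lists combine the replicates of a genotype and hold no reads, so no value below carries an SD, no difference could be weighed against replicate error, and depth is unknown. Fold enrichment is the deposited ratio of IP over input within a peak, and the false discovery rate is that of the peak caller. A high fold enrichment is not always a strong call. In *Wtap*-HKO, *Col28a1* had 19.0 at a false discovery rate of 9.5e-05, and *Col1a1* had 9.15 at 1.0e-201. *Wtap* itself had 3 peaks in each list, with fold enrichments of 8.06 to 20.7 in *Wtap* flox/flox and 4.47 to 20.6 in *Wtap*-HKO, which does not check the deletion. Where 2 values of a shared peak stand side by side without a genotype, the *Wtap* flox/flox value comes first. Positions are on GRCm38, and peaks are given by the peak caller as exonic blocks. The lists hold no RNA levels. By RT-qPCR, the study reports higher mRNA of collagen IA1, *Mmp9*, aSma and *Tgfb1* in *Wtap*-HKO livers on normal chow. What part RNA levels have in the peaks was not tested. In whole liver, more cells of a type and more RNA per cell cannot be told apart.

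GGAC is the core of the sequence in which METTL3 methylates adenosine. RefSeq start windows of GRCm38.p6, a patch release of the build to which the reads were aligned, reach from 250 bases before a gene start to 50 bases after it, and they covered 1507 nt of 17 of the matrix gene peaks in *Wtap*-HKO. Read on the strand of the transcript, these bases held 6 GGAC, or 3.98 per 1000 nt, beside 5.55 per 1000 nt in the 3050 *Wtap*-HKO peaks of all genes that could be read in the same way and 3.85 per 1000 nt in all windows on both strands. Over all genes in *Wtap* flox/flox it was 5.75 per 1000 nt, in 1492 peaks. By its own motif search, the study found GGACU in *Wtap* flox/flox peaks and not in *Wtap*-HKO peaks. The counts here are of GGAC in start windows only and do not repeat that search. The stretches below lie inside peaks of *Col4a1*, *Col4a2*, *Adamts5* and *Mmp15*, with GGAC in capitals. They are shown because the first 2 belong to a pair of collagen IV genes with a shared start and peaks in *Wtap*-HKO only, the next to a gene with a long 5′ peak of high fold enrichment in *Wtap*-HKO only, and the last to a metalloproteinase with peaks in both lists.
Col4a1, chr8:11312705-11312734, minus strand: gtcaccgcacccgGGACggtgagcagggct
Col4a2, chr8:11312865-11312892, plus strand: cgcgccgctcgGGACttggtgtcgcagg
Adamts5, chr16:85899838-85899867, minus strand: acagaggcaccgtGGACggcagccctcgat
Mmp15, chr8:95352285-95352314, plus strand: ccaaactcgccggGGACgccgggcgctggc

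The AP-1 motif, TGACTCA or its reverse complement TGAGTCA, is known from the promoters of metalloproteinase genes. It was searched in the same RefSeq windows on both strands. A window was found for 75 of the genes chosen by the rule, and 8 of them (10.7%) held the motif, beside 5.95% of 27025 genes with a window. Among the genes with a peak it was 3 of 40 (7.50%), namely *Mmp12*, *Mmp7* and *Col6a1*. The other 5 were *Mmp1a*, *Mmp1b*, *Mmp3*, *Mmp10* and *Mmp13*, which had no peak and lie with *Mmp12* and *Mmp7* on chromosome 9. The motif is in capitals below, 44, 63 and 90 bases before the start.
Mmp12, chr9:7347319-7347347, plus strand: gacatcaacagTGAGTCAgatagaggatt
Mmp7, chr9:7692016-7692044, plus strand: aagtgtgcaaaTGAGTCAcctatttccac
Col6a1, chr10:76726117-76726145, minus strand: tgctgatgctgTGACTCActcagctttga

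More matrix genes carried peaks in *Wtap*-HKO livers than in *Wtap* flox/flox livers. Peaks were found in 59 of the 60 genes in *Wtap*-HKO and in 29 in *Wtap* flox/flox. In 28 genes both lists held peaks, 31 genes had peaks in *Wtap*-HKO only (51.7%, beside 22.0% of all genes with a peak), and 1 gene, *Adamts6*, had a peak in *Wtap* flox/flox only (1.67%, beside 7.99%). Of the 117 *Wtap*-HKO peaks, 84 (71.8%) shared no exonic base with a *Wtap* flox/flox peak, beside 35.3% of all *Wtap*-HKO peaks. In the other direction it was 7 of 43 peaks (16.3%), beside 19.9%. These 7 lay in *Adamts6*, *Col5a3*, *Col6a5*, *Lamb2*, *Mmp15* and, with 2 peaks, *Col18a1*. The exonic bases under peaks came to 11571 nt in *Wtap* flox/flox and 39365 nt in *Wtap*-HKO. The number of peaks was greater in *Wtap*-HKO for 48 of the 60 genes (80.0%, beside 41.0% of all genes), equal for 9 and smaller for 3. Among the 28 genes of both lists it was greater for 17 (60.7%, beside 27.1%).

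**Figure D1:**
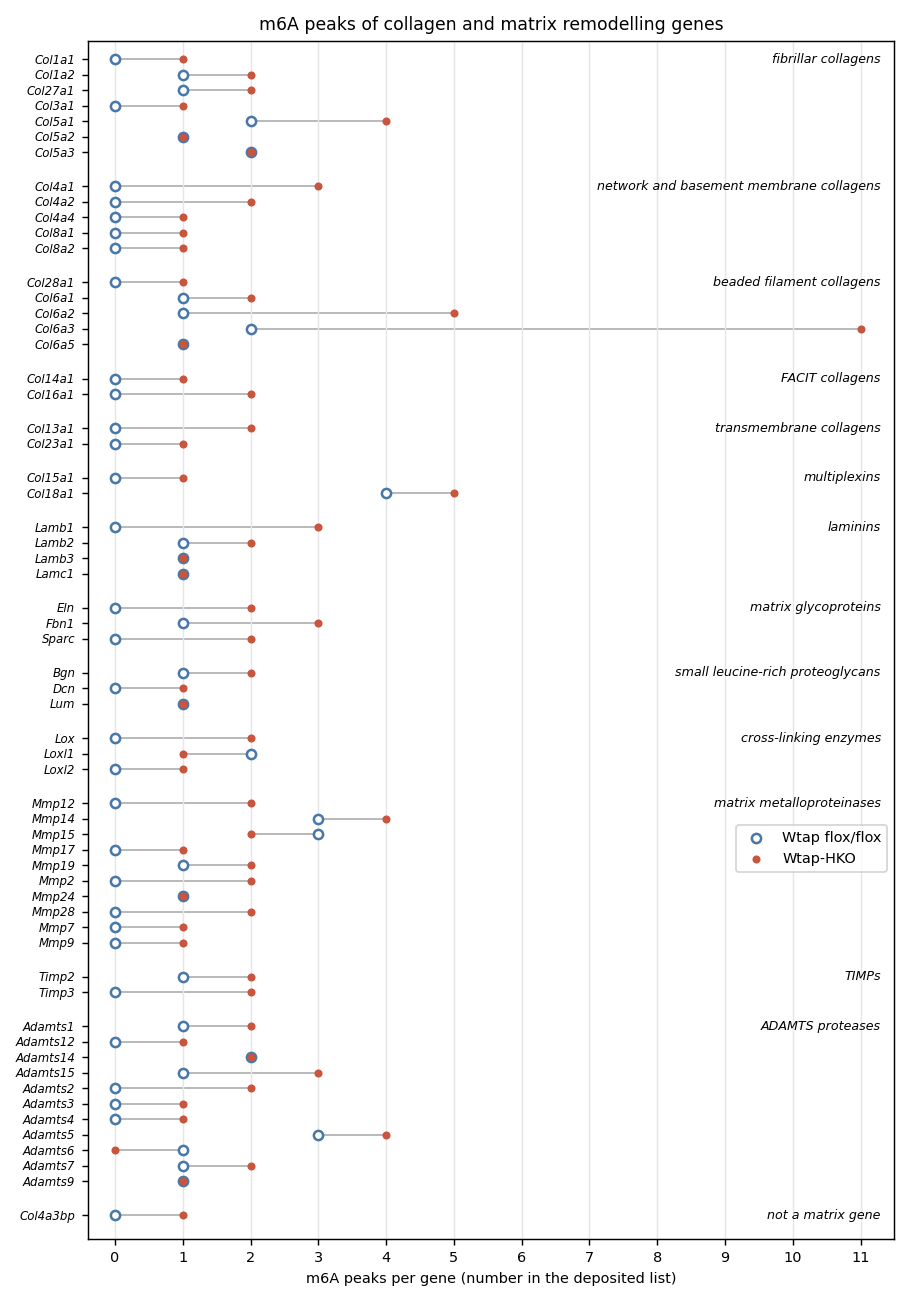
Number of m6A peaks (horizontal axis) of each of the 60 genes in the *Wtap* flox/flox list (open circles) and the *Wtap*-HKO list (filled circles), by role. The filled circle lies to the right for 48 genes, on the open circle for 9 and to its left for *Adamts6*, *Loxl1* and *Mmp15*.

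Markers of other liver cells, listed by name, were counted beside this. Of 7 Kupffer cell and macrophage markers, 6 carried 11 peaks in *Wtap*-HKO, whereas 2 carried 4 peaks in *Wtap* flox/flox. Of 9 stellate cell and myofibroblast markers, 7 carried 10 peaks in *Wtap*-HKO and 6 carried 10 peaks in *Wtap* flox/flox. Of 8 endothelial markers, the same number, 6, had peaks in each list, with 13 in *Wtap*-HKO and 8 in *Wtap* flox/flox. Of 6 cholangiocyte markers, 3 carried 5 peaks in *Wtap*-HKO and 2 carried 2 peaks in *Wtap* flox/flox. Of 8 hepatocyte markers, 5 had peaks in each list, with 16 in *Wtap*-HKO and 14 in *Wtap* flox/flox. Of markers with a peak, 4 of 6 macrophage (66.7%) and 1 of 3 cholangiocyte markers (33.3%) had peaks in *Wtap*-HKO only. The same held for 1 of 6 hepatocyte (16.7%), 1 of 7 stellate cell (14.3%) and none of 6 endothelial markers. Of all genes with a peak, it was 22.0%. In the deposited list of differential peaks, described further on, higher peaks were found in 3 of the 6 hepatocyte markers with a peak (*Alb*, *Ttr* and *Hnf4a*), 3 of the 7 stellate cell markers (*Lrat*, *Hand2* and *Colec11*), 2 of the 6 macrophage markers (*Csf1r* and *Ptprc*), 1 of the 6 endothelial markers (*Eng*) and none of the 3 cholangiocyte markers, beside 12.6% of all genes. Lower peaks were found in 4 of the hepatocyte markers (*Apoa1*, *Apob*, *Cyp2e1* and *Hnf4a*) and in none of the others, beside 16.8% of all genes. *Acta2*, *Reln*, *Adgre1*, *Stab1*, *Stab2*, *Krt7*, *Krt19*, *Cftr*, *Serpina1a* and *Cps1* had no peak in either list. The part of these cell types in the counts of matrix gene peaks was not tested.

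Fibrillar collagens form the tensile fibres of scar. Of 11 such genes, 7 had peaks, with 13 peaks in *Wtap*-HKO against 7 in *Wtap* flox/flox. *Col1a1*, a chain of type I collagen, had no *Wtap* flox/flox peak and 1 *Wtap*-HKO peak (chr11:94951205-94951903) of 570 exonic nt and fold enrichment 9.15. *Col1a2*, the other chain, had a peak near its 3′ end in both lists, with fold enrichments of 15.9 and 13.8, and a further peak that begins 82 nt after its start in *Wtap*-HKO only (5.37). *Col3a1*, the type III chain, had a peak of fold enrichment 3.46 in *Wtap*-HKO only. The type V chains, which set fibril width, had peaks in both lists. *Col5a1* had 4 peaks in *Wtap*-HKO against 2 in *Wtap* flox/flox, and its peaks near the 3′ end differed in opposite directions, from 6.70 to 27.2 for the peak 2246 nt from the end and from 34.3 to 6.39 for the peak 626 nt from the end. The *Col5a2* peak had fold enrichments of 15.7 and 25.2. *Col5a3* had 2 peaks in each list, of which 1 was shared (3.31 and 2.96). *Col27a1*, a fibril-forming chain, had a shared peak with 2.79 and 4.05 and a second peak in *Wtap*-HKO only (4.16).

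Network and basement membrane collagens had 8 peaks in *Wtap*-HKO, in 5 of 10 genes, and none in *Wtap* flox/flox. *Col4a1* and *Col4a2*, which twist together into the main collagen of basement membranes, are transcribed away from each other on chromosome 8, and their RefSeq starts overlap by 22 nt. Each had a *Wtap*-HKO peak next to this shared start, which begins 90 nt into *Col4a1* (fold enrichment 2.61) and 60 nt into *Col4a2* (5.32). The GGAC stretches printed above lie inside these peaks. The library kit named by the study does not mark strand, so reads of a gene and of an antisense partner cannot be told apart. *Col4a1* had 2 more *Wtap*-HKO peaks (1.95 and 2.10) and *Col4a2* had 1 more (1.64). *Col4a4* had a peak of fold enrichment 24.4, and the type VIII chains *Col8a1* and *Col8a2*, found around vessels, had peaks of 92.1 (chr16:57628469-57628738) and 37.9. The value of *Col8a1* was the highest among genes with peaks in *Wtap*-HKO only.

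Beaded filament collagens, with collagen VI as the main member, had 20 peaks in *Wtap*-HKO against 5 in *Wtap* flox/flox. Collagen VI links interstitial fibres to cells and basement membranes. *Col6a3* had the most peaks of any matrix gene, 11 in *Wtap*-HKO against 2 in *Wtap* flox/flox. Its shared peaks had fold enrichments of 11.6 and 28.7 for the peak nearer the 3′ end and of 11.0 and 15.1 for the peak near the middle of the gene. The 9 peaks of *Wtap*-HKO only had fold enrichments from 4.42 to 57.8, the highest at chr1:90827950-90828339. *Col6a1* had a peak near its 3′ end in both lists, with 18.9 and 29.9, and a peak that begins 26 nt after its start in *Wtap*-HKO only (4.38). *Col6a2* had the highest fold enrichment of the matrix genes in *Wtap* flox/flox, 64.1, at a peak of 180 nt (chr10:76614590-76614769), and the *Wtap*-HKO peak there had 21.9 over 510 nt. In *Wtap*-HKO *Col6a2* had 4 more peaks, the longest of which covered 929 nt at the 3′ end (8.79). *Col6a5* had 1 peak in each list, at different places (17.6 and 19.9). *Col28a1* had a peak of 19.0 in *Wtap*-HKO only.

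**Figure D2:**
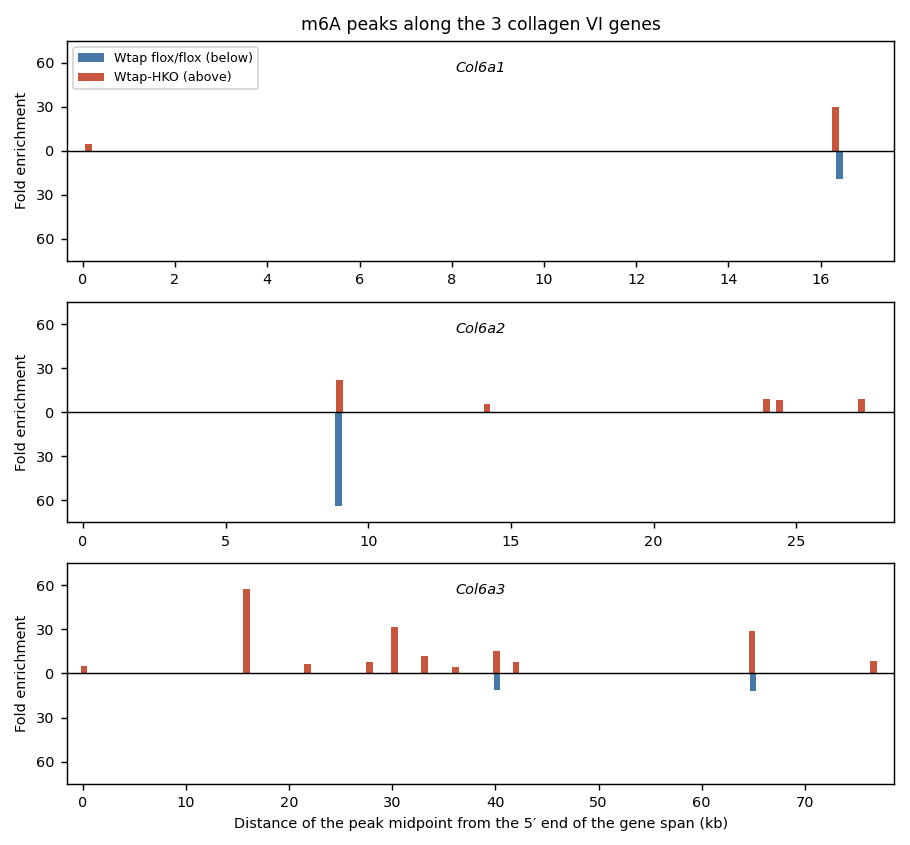
Fold enrichment (IP over input, vertical axis) of each m6A peak of *Col6a1*, *Col6a2* and *Col6a3* at the distance of its midpoint from the 5′ end of the gene span, introns included (kb), with *Wtap*-HKO above the line and *Wtap* flox/flox below it. Bar widths are fixed and do not show peak length. *Col6a3* shows 11 peaks above the line and 2 below it.

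The other collagens had peaks in few genes. FACIT collagens, which decorate fibrils, had 3 peaks, all in *Wtap*-HKO, in *Col14a1* (9.26) and *Col16a1* (6.32 and 6.02). *Col4a3bp*, the ceramide transfer protein gene, had a peak of 4.28 in *Wtap*-HKO only. Transmembrane collagens also had 3, all in *Wtap*-HKO. *Col13a1* held 2 of them, 1 of which covered 360 nt from a RefSeq start (16.6), and *Col23a1* had a peak of 18.1. Among the multiplexins, which sit in vascular basement membranes, *Col15a1* had a peak in *Wtap*-HKO only (5.24). *Col18a1*, the source of endostatin, had 5 peaks in *Wtap*-HKO against 4 in *Wtap* flox/flox at fold enrichments of 1.51 to 4.16, of which 2 were shared. In all, 23 of 44 collagen genes had peaks, 13 of them in *Wtap*-HKO only, with 53 peaks in *Wtap*-HKO against 16 in *Wtap* flox/flox.

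Laminins are the other scaffold of basement membranes. Peaks were found in 4 of 11 genes, and none of the 5 alpha chain genes had a peak. *Lamb1* had 3 peaks in *Wtap*-HKO only (6.10, 3.51 and 3.78). *Lamb2* had peaks in both lists that did not overlap, *Lamc1* had a shared peak with 7.41 and 6.97, and *Lamb3* a shared peak with 44.8 and 12.9. The *Lamb3* peaks begin upstream of the RefSeq gene span.

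Among the glycoproteins, *Fn1*, which encodes fibronectin, had no peak in either list. *Fbn1*, the microfibril protein fibrillin, had 3 peaks in *Wtap*-HKO against 1 in *Wtap* flox/flox, and the shared peak near its 3′ end had fold enrichments of 9.47 and 35.0. Its peak near the 5′ end in *Wtap*-HKO overlaps a peak assigned to *Gm9913* on the other strand. *Eln*, which encodes elastin, had 2 peaks in *Wtap*-HKO only (4.28 and 5.21), and *Sparc*, a collagen-binding protein, had 2 in *Wtap*-HKO only (1.70 and 7.39). Small leucine-rich proteoglycans bind collagen fibrils and growth factors. *Dcn* had a peak of 450 nt in *Wtap*-HKO only (7.60). The *Lum* peak covered 180 nt in *Wtap* flox/flox (7.11) and 1343 nt in *Wtap*-HKO (11.0), which is the longest peak of the matrix genes. *Bgn* had a shared peak with fold enrichments of 2.13 and 2.94 and a second peak in *Wtap*-HKO only (1.92).

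Lysyl oxidases oxidise lysines of collagen and elastin so that the fibres cross-link. *Lox* had 2 peaks in *Wtap*-HKO only (13.2 and 15.8), and *Loxl2* had 1 (9.59). *Loxl1* had 2 peaks of 181 nt each in *Wtap* flox/flox (19.8 and 17.1), which 1 peak of 1230 nt in *Wtap*-HKO covered (29.4). The smaller number of *Loxl1* peaks in *Wtap*-HKO is this merger.

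Among the matrix metalloproteinases, more genes had peaks in *Wtap*-HKO, whereas most of the shared peaks had a lower fold enrichment there. Of 23 genes, 10 had peaks, 6 of them in *Wtap*-HKO only, with 18 peaks in *Wtap*-HKO against 8 in *Wtap* flox/flox. The gelatinases *Mmp2* (6.64 and 2.31) and *Mmp9* (7.45), the macrophage elastase *Mmp12* (15.8 and 2.74), the epithelial *Mmp7* (8.13), *Mmp17* (62.3) and *Mmp28* (37.0 and 10.8) had peaks in *Wtap*-HKO only. The *Mmp28* region overlaps a peak assigned to *1700020L24Rik* on the other strand. *Mmp13*, a collagenase, had no peak. The membrane-bound *Mmp14* had 4 peaks in *Wtap*-HKO against 3 in *Wtap* flox/flox, and its shared peaks had fold enrichments of 6.35 and 7.63 near the start, 6.05 and 3.25 in the body, and 6.04 and 5.36 at the 3′ end. *Mmp15* had 2 peaks in *Wtap*-HKO against 3 in *Wtap* flox/flox, with 6.40 and 3.74 at the start and 3.36 and 1.99 at the 3′ end, and its other *Wtap* flox/flox peak (2.48) had no partner. *Mmp19* had a shared peak with 5.51 (chr10:128798759-128799208) and 2.60. Its second peak, in *Wtap*-HKO only (1.52), overlaps a peak assigned to *Tmem198b* on the other strand. *Mmp24* had a shared peak with 5.74 and 6.05, which overlaps a peak assigned to *BC029722* on the other strand. The 7 shared peaks of the metalloproteinases lay in only 4 genes. Their median log2 ratio of fold enrichment, *Wtap*-HKO over *Wtap* flox/flox, was -0.76, beside 0.01 over all shared peaks. In *Wtap*-HKO 5 of the 7 were lower, beside 5187 of 10499 pairs of all genes. Of these 5, those of *Mmp14* and the start of *Mmp15* had a smaller false discovery rate in *Wtap*-HKO. Those of *Mmp19* and the 3′ end of *Mmp15* had a larger one.

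Among the inhibitors, *Timp1* had no peak. *Timp2*, which also helps MMP14 to activate pro-MMP2, had a peak that begins 48 nt after its start in both lists, with fold enrichments of 42.2 and 18.1, and a second peak towards its 3′ end in *Wtap*-HKO only (4.07). *Timp3*, which stays bound to the matrix, had 2 peaks in *Wtap*-HKO only (7.83 and 2.29).

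ADAMTS proteases cut procollagen ends and proteoglycans. Of 19 genes, 11 had peaks, with 19 peaks in *Wtap*-HKO against 10 in *Wtap* flox/flox. *Adamts15*, which cuts versican and aggrecan, had the highest fold enrichment of all matrix gene peaks. The value there was 29.0 over 570 nt in *Wtap* flox/flox and 167 over 1319 nt (chr9:30901191-30902509) in *Wtap*-HKO. *Adamts14*, a procollagen N-proteinase, had 2 peaks in both lists, with 6.02 and 63.2 at the upstream peak and 7.90 and 31.6 at the downstream peak. *Adamts2*, another procollagen N-proteinase, had 2 peaks in *Wtap*-HKO only (7.23 and 3.79), and *Adamts3*, of the same subgroup, had 1 (19.0). *Adamts5*, the main aggrecanase of cartilage, had 3 neighbouring peaks in *Wtap* flox/flox (9.66, 39.5 and 46.6), which 1 *Wtap*-HKO peak of 1230 nt covered (41.5), and a peak of 1080 nt near its 5′ end in *Wtap*-HKO only (48.8). *Adamts1* had a shared peak with 18.4 and 10.7, and *Adamts7* a shared peak with 11.4 and 4.92. Each had a further peak in *Wtap*-HKO only, of 3.45 in *Adamts1* and 11.1 in *Adamts7*. The shared peak of *Adamts9* had 9.08 and 8.29, and *Adamts4* (8.49) and *Adamts12* (21.2) had a peak in *Wtap*-HKO only. *Adamts6* had a peak of 22.8 in *Wtap* flox/flox only.

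Where a peak was found in both lists, its fold enrichment differed in either direction. A peak of each list overlapped exactly 1 peak of the other in 31 matrix gene pairs of 24 genes. The fold enrichment was higher in *Wtap*-HKO in 16 of them (51.6%), beside 50.4% of 10499 pairs of all genes. The median log2 ratio was 0.08 (range -2.42 to 3.39), beside 0.01 over all pairs, and -0.12 over the 20 matrix gene pairs that share at least 50% of both peaks. The highest ratios were those of *Adamts14* (3.39 and 2.0), *Adamts15* (2.53), *Col5a1* (2.02) and *Fbn1* (1.89). The lowest were those of *Col5a1* (-2.42), *Lamb3* (-1.80), *Col6a2* (-1.55), *Timp2* (-1.22) and *Adamts7* (-1.21). Of the peaks with these ratios, the deposited differential list holds those of *Adamts14* (3.39), *Adamts15*, *Col5a1* (2.02) and *Adamts7*. The others were not called differential. Collagen pairs had a median of 0.50 over 12 pairs, of which 8 were higher. Pairs of proteases and TIMPs had a median of -0.46 over 14 pairs, of which 5 were higher. None of these ratios has a replicate error.

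**Figure D3:**
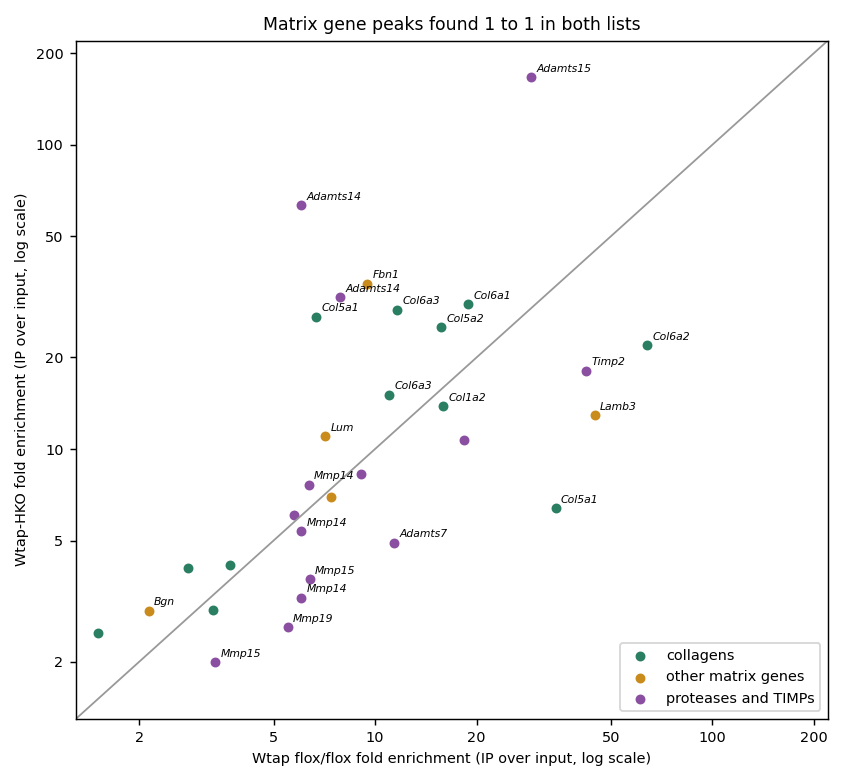
Fold enrichment (IP over input) of the 31 matrix gene peaks found 1 to 1 in both lists, in *Wtap* flox/flox (horizontal, log scale) and *Wtap*-HKO (vertical, log scale), with the line of equal values. The points lie on both sides of the line, 16 above and 15 below, with *Adamts14* and *Adamts15* far above it and *Col5a1*, *Lamb3* and *Col6a2* far below it, and 5 of the 7 metalloproteinase points below it.

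The same peaks were longer and had smaller false discovery rates in *Wtap*-HKO. The *Wtap*-HKO peak was longer in 25 of the 31 pairs (80.6%), beside 45.9% of all pairs, and the median length was 211 exonic nt in *Wtap* flox/flox and 449 nt in *Wtap*-HKO, beside 299 and 300 nt over all pairs. The false discovery rate was smaller in *Wtap*-HKO in 26 of the 31 pairs (83.9%), beside 57.9%. Its median log10 was -30.1 and -119 in the matrix gene pairs, and -28.5 and -38.9 over all pairs. Of the 15 matrix gene pairs with a lower fold enrichment in *Wtap*-HKO, 11 (73.3%) had a smaller false discovery rate there, beside 29.4% of such pairs of all genes. *Col6a2* is an example, with a fold enrichment of 64.1 and a log10 false discovery rate of -17.3 in *Wtap* flox/flox, and 21.9 and -151 in *Wtap*-HKO. At *Timp2* the fold enrichment was 42.2 and 18.1 and the log10 false discovery rate -30.1 and -194. In the other 4 of these pairs, in *Lamb3*, *Adamts7*, *Mmp19* and the 3′ peak of *Mmp15*, both measures were weaker in *Wtap*-HKO. The lists hold no read totals, and whether the number of reads over these genes differed between the genotypes was not tested.

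The deposited list of differential peaks, with a p-value under 0.01 for each, held 12 matrix gene peaks in 11 genes. The share of matrix genes with a higher peak in *Wtap*-HKO was 7 of 60 (11.7%), beside 12.6% of all genes, and with a lower peak 4 of 60 (6.67%), beside 16.8%. The share with a higher peak lies near that of all genes. Only *Lamb1* (1 of 31, 3.23%) among the matrix genes with peaks in *Wtap*-HKO only had a row in this list, beside 10.7% of the 2538 genes of all kinds with peaks in *Wtap*-HKO only. The sign was read against the lists. Of 1192 differential peaks with a log2 fold change below -1, 1184 overlapped a *Wtap* flox/flox peak and 702 a *Wtap*-HKO peak, and of 1000 above 1, 503 and 983 did.

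Among the higher differential peaks, *Adamts14* had a log2 fold change of 2.38 (p-value 1.5e-05), and *Adamts5*, at its 5′ peak, 2.31 (p-value 1.7e-06). *Col5a1*, at the peak 2246 nt from its 3′ end, had 1.70 (p-value 1.0e-10), and *Adamts15* had 1.64 (p-value 3.2e-05). These 3 proteases and *Col5a1* also had the high fold enrichments in *Wtap*-HKO given above. *Col6a2* had 1.56 at its 3′ end (p-value 7.9e-14), *Lamb1* 1.41 (p-value 1.4e-04) and *Timp2* 1.04 (p-value 1.7e-05), each, like that of *Adamts5*, at a peak with no *Wtap* flox/flox partner. Among the lower ones, *Mmp19* had -1.25 (p-value 7.9e-34), *Mmp15* -1.16 (p-value 4.0e-18) and -1.12 (p-value 5.0e-23), *Col18a1* -1.12 (p-value 3.2e-83) and *Adamts7* -0.82 (p-value 3.0e-04). All p-values are those of the peak caller, as deposited, on combined replicates. *Col6a2* and *Timp2* had a higher differential peak towards the 3′ end, whereas the fold enrichment of the shared upstream peak of each gene was lower in *Wtap*-HKO. Neither upstream peak was called differential, and both had a smaller false discovery rate in *Wtap*-HKO.

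**Figure D4:**
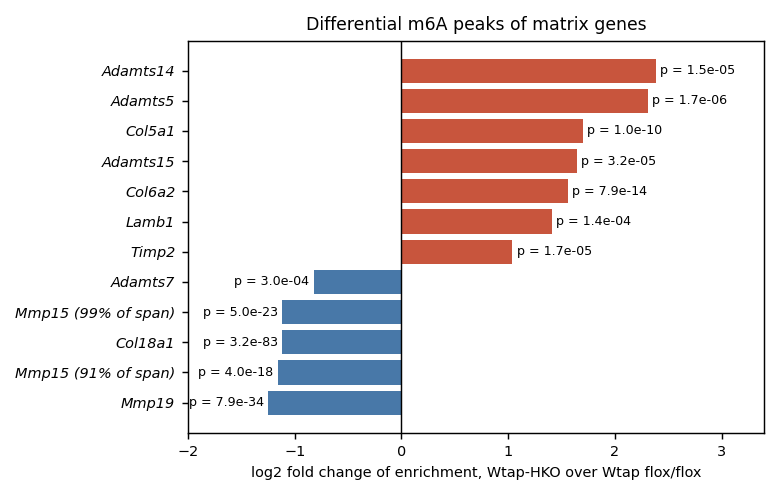
log2 fold change of enrichment, *Wtap*-HKO over *Wtap* flox/flox, of the 12 matrix gene peaks of the deposited differential list, with the p-value of the peak caller. The 7 higher peaks range from 1.04 to 2.38 and the 5 lower ones, 3 of which are metalloproteinase peaks, from -0.82 to -1.25.

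**Figure D5:**
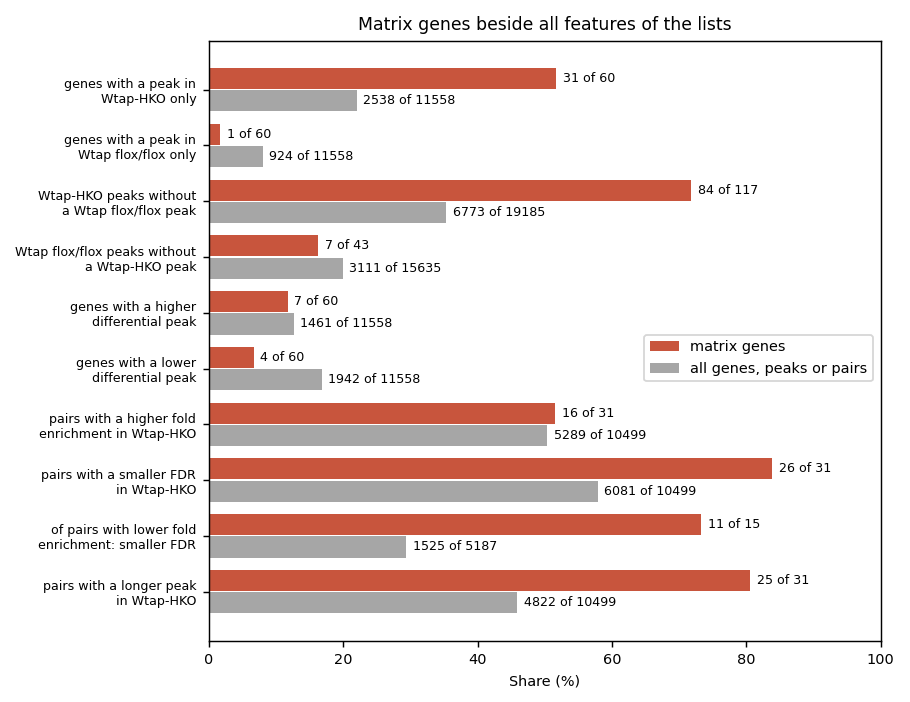
Share (%) of the 60 matrix genes, their peaks or their peak pairs (red) beside the share of all genes, peaks or pairs of the lists (grey), with counts. Matrix genes differ from all genes in peaks of *Wtap*-HKO only (51.7% beside 22.0%) and in longer peaks with smaller false discovery rates (FDR), and are close to all genes in the share of higher differential peaks (11.7% beside 12.6%).

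Peaks near the start of a gene were more frequent in *Wtap*-HKO, in matrix genes as in all genes. An edge lay within 200 nt of the 5′ end of the gene span for 4 of 43 peaks (9.30%, beside 10.9% of all placed peaks) in *Wtap* flox/flox and 22 of 117 (18.8%, beside 18.5%) in *Wtap*-HKO. The 3′ end had 3 (6.98%) and 9 (7.69%), beside 10.2% and 8.37%. *Mmp14*, *Mmp15* and *Timp2* had such a 5′ peak in both lists. So had *Lamb3*, whose peaks begin upstream of the gene span and are counted as lying at its 5′ end. *Wtap*-HKO peaks began at 29 nt (*Adamts2*), 31 nt (*Lamb1*), 30 nt (*Col5a1*, *Col6a3* and *Mmp7*) and 33 nt (*Mmp12*) from a RefSeq start. The *Mmp12* start lies inside the gene span, and its peak, 3010 nt from the 5′ end of the span, is not among the 22. Antibodies to m6A also bind m6Am, a mark on adenosine next to the cap. In 16 genes with a start window, a *Wtap*-HKO peak began at the RefSeq start or up to 200 nt after it. Of these, 6 (37.5%) begin with A, beside 34.4% of all windows. *Mmp15*, which begins with G, is not among the 16, since its *Wtap*-HKO peak begins before the start.

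Partner genes of the matrix were listed by function, as 83 symbols that stand for 82 genes. In *Wtap*-HKO 68 of the symbols carried 123 peaks, and in *Wtap* flox/flox 47 carried 77. Of the 69 with a peak, 22 had peaks in *Wtap*-HKO only (31.9%, beside 22.0% of all genes) and 1, *Itga7*, in *Wtap* flox/flox only (1.45%, beside 7.99%). A higher differential peak was found in 10 (14.5%, beside 12.6%) and a lower in 4 (5.80%, beside 16.8%). By function, the share with peaks in *Wtap*-HKO only lay on both sides of the 22.0% of all genes. It was lower for receptors (2 of 17 with a peak, 11.8%) and profibrotic signals (2 of 14, 14.3%). Higher shares were found for folding and processing (9 of 17, 52.9%) and other matrix genes (7 of 17, 41.2%). The plasminogen system had 2 of 4. Of 24 genes for folding and processing of collagen, 9 had peaks in *Wtap*-HKO only, among them *Serpinh1*, the collagen chaperone HSP47 (fold enrichment 4.74), *Plod2*, a lysyl hydroxylase (24.5), and *Pcolce2*, a procollagen C-proteinase enhancer (33.4, with a higher differential peak of log2 fold change 2.12, p-value 1.0e-06). *Mia3*, which exports procollagen from the endoplasmic reticulum, had 2 lower differential peaks (-0.74 and -0.97), as had *P4hb*, a prolyl hydroxylase subunit (-0.30 and -0.44), and *Plod1*, another lysyl hydroxylase, had a higher one (0.56). Of 20 receptors, 2 had peaks in *Wtap*-HKO only. *Ddr2*, the fibrillar collagen receptor kinase, had 4 peaks in *Wtap*-HKO against 1 in *Wtap* flox/flox and 2 higher differential peaks (1.85 and 3.49), *Itgb1* a higher one (1.49), *Itga6*, a laminin receptor chain, a lower one (-1.73) and *Dag1*, dystroglycan, 3 lower ones (-0.77 to -1.26). Of 15 symbols of profibrotic signals, 14 had peaks in *Wtap*-HKO against 12 in *Wtap* flox/flox, and *Tgfbr2* (1.38) and *Smad7* (1.34) had a higher differential peak. Of 19 other matrix genes, 7 had peaks in *Wtap*-HKO only, among them *Tnc* (56.9), *Postn* (5.74) and *Thbs2* (40.4), and *Nid1* (1.42), *Fbln5* (1.35) and *Vtn* (1.03) had a higher differential peak. Of 5 genes of the plasminogen system, *Plau* and *Plaur* had peaks in *Wtap*-HKO only, and *Plg* had a higher differential peak (0.92).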

How the data were processed

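m6ARIP-seq of *Wtap* flox/flox and *Wtap*-HKO liver was examined in 8 libraries (2 IP and 2 input per genotype). According to the methods and processing notes, reads of 150 bp were trimmed with fastp 0.19.11, aligned to GRCm38 with BWA mem 0.7.12, and peaks called with exomePeak. How replicates were combined is not given in the sources used here. The deposited fold enrichment is the IP to input ratio of a peak. The deposited p-values and false discovery rates are log10 scores of the peak caller. The authors' differential peaks carry a log2 fold change. Their input libraries are the only background. The authors' differential p-values were used as deposited, as no test was possible here.

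Peaks were tallied in pandas 2.3.3 under Python 3.11.15, called shared at 1 exonic base on the same strand, and placed on RefSeq gene spans (GRCm38.p6), which include introns. Starts are 1-based. The overlap was checked on a sample of the deposited *Wtap* flox/flox peaks, set against a copy in which part of them had been moved off their chromosome. Named were the genes of the differential list, the 5 highest fold enrichments per list and per genes of a single list, the 5 highest and lowest ratios of shared peaks, and textbook fibrosis genes. Members and lists were chosen with earlier results of these data known. Other alternatives are described in the closing section. Peak sequences outside the RefSeq windows were not used here.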

Additional observations from a re-analysis of the deposited data

How the results depend on the processing

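No paired analysis was possible because the lists combine the replicates of a genotype, and leaving out a replicate was not possible either. A false discovery rate under 0.01 removed no peak. Of 36 alternative values, 28 stayed within 1.5 times the reported count. The 31 genes with peaks in *Wtap*-HKO only were 27 to 31 under every alternative run, and with a false discovery rate under 1e-05 in both lists, chosen after the data had been seen, 30 of 55 genes (54.5%, beside 21.9%). Without *Col6a3*, 75 *Wtap*-HKO peaks had no *Wtap* flox/flox partner. At a differential p-value under 1e-05, 3 genes had a higher peak (*Adamts5*, *Col5a1* and *Col6a2*) in place of 7. The median log2 ratio of the shared peaks changed sign, to -0.12 over the 20 pairs that share at least 50% of both peaks, and as a difference of percentile ranks it was -1.14 points (beside -3.34 over all pairs). Position depends on the definition. With the first and final 10% of the span in place of 200 nt, the *Wtap* flox/flox list had 7 peaks at the 5′ end, 17 in the middle and 19 at the 3′ end in place of 4, 36 and 3, and the *Wtap*-HKO list had 47 in the middle and 40 at the 3′ end in place of 86 and 9.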
